A study of Mus musculus with 33 samples.

Results

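The 10 genes described here are the H3K4 methyltransferase genes Kmt2a, Kmt2b, Kmt2c, Kmt2d, Setd1a and Setd1b, their relative Kmt2e, the coactivator gene Ncoa6 and the H3K27 demethylase genes Kdm6a and Kdm6b. They were taken by symbol from a table of 53465 mouse genes, because Kmt2d is lower with cancer in one Treg population of the colon, the TSLPR+ST2- cells. They were thus chosen by the cancer and naive levels of that population, which are given as a description without a test. Every other comparison below rests on other libraries or on another contrast.

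The series measured gene expression by RNA sequencing in regulatory T cells (Treg), the Foxp3+ T cells that restrain immune responses. They were sorted from the colon of Foxp3-yfp B6 mice as CD45+, TCR+, CD4+ and Foxp3+ cells and divided by surface TSLPR, the receptor for the cytokine TSLP (gene Crlf2), and ST2, the receptor for IL-33 (gene Il1rl1). Cancer mice (mice 5 to 8) had received 1 injection of the carcinogen azoxymethane (AOM) at 10 mg/kg and then 3 cycles of the colitis-inducing agent dextran sulfate (DSS), each of 7 days, and were taken 2 weeks after the last DSS. Naive mice (mice 1 to 4) had not been given the cancer model, and the labels name no mock treatment for them. Each mouse gave 1 library of 200 cells for every combination of TSLPR (+ or -) and ST2 (+ or -), so there were 32 libraries in 8 groups of 4. All mice carry the Foxp3 reporter, and purchased mice were 7 to 12 weeks old. There was no group with AOM or DSS alone, so tumours, recent colitis and the chemicals cannot be told apart. Totals ran from 4038718 to 8839946 counts per library. All 8 Treg markers, Foxp3 among them, were counted in all 32 libraries. Totals in the TSLPR+ST2+ gate did not overlap: cancer libraries had at most 5816224 counts and naive libraries at least 6607867. The ST2 gene Il1rl1 averaged 181 CPM (counts per 1000000 counts) in ST2+ and 2.38 in ST2- Treg, and the TSLPR gene Crlf2 averaged 40.4 CPM in TSLPR+ and 15.8 in TSLPR- Treg. Cancer mouse 5 went against its TSLPR labels among ST2+ cells, with 25.2 CPM of Crlf2 in its TSLPR+ and 30.5 in its TSLPR- library. The TSLPR differences of Kmt2d, Kmt2c and Kmt2e over all 4 gates are therefore also given without that mouse.

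KMT2 and SETD1 proteins add methyl groups to lysine 4 of histone H3, the mark of active promoters and enhancers, and work in complexes built on the shared core of WDR5, RBBP5, ASH2L and DPY30. KMT2C and KMT2D act mainly at enhancers, in complexes that also hold NCOA6 and the demethylase KDM6A. KDM6A and KDM6B remove methyl groups from lysine 27, the repressive mark that the PRC2 complex writes. In T cells KMT2D is known for preparing enhancers of Foxp3, and KDM6B for its part in helper T cell differentiation.

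Upstream sequence is shown for 3 members whose levels passed in at least 1 comparison: Kmt2d (lower in cancer and in TSLPR+), Kmt2a (higher in TSLPR+ST2+ with cancer) and Kmt2c (lower in TSLPR+). The RefSeq promoter table (GRCm38.p6) held 6 of the 10 members. Kmt2e, which also passed (lower in TSLPR+), was not among these 6, so no sequence is shown for it. Each line is the 250 bases before the RefSeq start on the gene's strand, at chr15:98871206-98871455 (- strand), chr9:44881290-44881539 (- strand) and chr5:25498784-25499033 (- strand). Capitals mark the GC box GGGCGG on either strand, the site read by SP family factors.
Kmt2d: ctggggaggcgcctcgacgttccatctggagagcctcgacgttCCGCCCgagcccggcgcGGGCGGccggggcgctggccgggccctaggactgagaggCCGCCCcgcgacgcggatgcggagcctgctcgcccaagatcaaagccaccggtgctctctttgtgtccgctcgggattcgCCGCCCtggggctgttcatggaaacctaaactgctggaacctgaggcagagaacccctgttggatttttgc
Kmt2a: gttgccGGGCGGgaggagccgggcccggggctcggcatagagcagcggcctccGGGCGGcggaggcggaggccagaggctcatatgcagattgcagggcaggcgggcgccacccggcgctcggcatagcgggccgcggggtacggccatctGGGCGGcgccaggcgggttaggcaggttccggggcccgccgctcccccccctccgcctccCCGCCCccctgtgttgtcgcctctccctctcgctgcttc
Kmt2c: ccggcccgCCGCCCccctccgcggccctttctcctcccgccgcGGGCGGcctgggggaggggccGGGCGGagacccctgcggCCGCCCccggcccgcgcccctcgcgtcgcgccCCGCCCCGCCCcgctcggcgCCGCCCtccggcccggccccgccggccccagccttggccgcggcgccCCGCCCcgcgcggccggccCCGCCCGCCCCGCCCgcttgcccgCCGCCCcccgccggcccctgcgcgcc
All 3 windows are rich in GC. Kmt2c has 91.6% G or C and 12 GC box matches, Kmt2a has 76.8% and 4 matches, and Kmt2d has 67.6% and 4 matches. The median GC share over 32851 promoter windows of the same length was 52.4%, and 32.7% of windows held at least 1 GC box. The AP-1 motif TGANTCA was in none of the 3 windows and in 6.75% of all windows. The ETS core CCGGAA was in the Kmt2a window alone of the 3, with 1 match, and in 12.03% of all windows. A match is a description of letters and says nothing of binding.

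All 10 genes passed the low-count filter that left 14861 genes in the model of 32 libraries. Levels between genes were compared as CPM per kilobase of exon (CPM per kb), averaged over 32 libraries. Kmt2e, a SET-domain protein not thought to methylate H3K4, led with 38.4 ± 5.66 CPM per kb (SD) and was above every other member in each library. Kmt2a, a promoter enzyme and the gene of mixed-lineage leukaemia, had 13.6 ± 3.09. Next came Kdm6a at 10.2 ± 2.45, Kmt2c at 9.16 ± 2.49 and Kmt2d at 8.25 ± 3.05 CPM per kb. Their order was not fixed: Kdm6a exceeded Kmt2c in 19 of 32 libraries and Kmt2c exceeded Kmt2d in 17 of 32. Ncoa6 (4.65 CPM per kb), Kmt2b (3.61), Kdm6b (3.32), Setd1b (2.01) and Setd1a (0.989) followed. Kmt2b, the partner paralog of Kmt2a, was above Kdm6b in 17 of 32 libraries, so this pair has no clear order. The Setd1a level is uncertain, because 3523 bases of its 6.795 kb of exon are shared on the same strand with the gene Gm49388, which had 0 counts in every library.

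**Figure D1:**
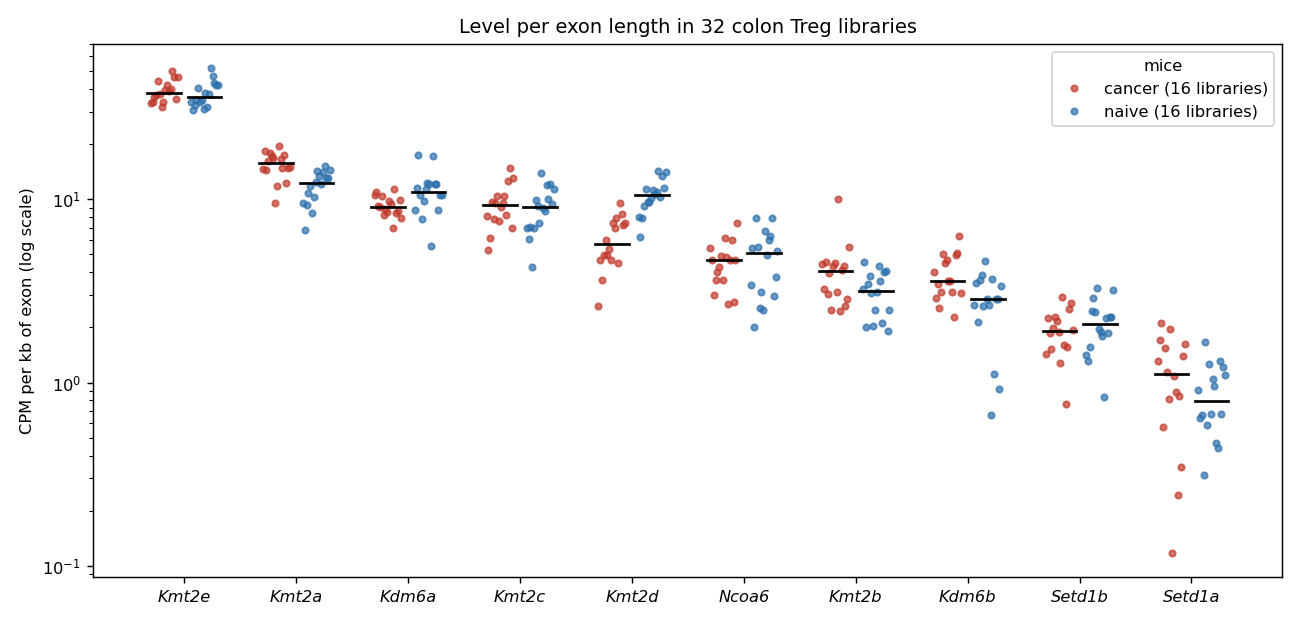
Level of the 10 genes in CPM per kb of exon (log axis) in 16 cancer and 16 naive colon Treg libraries, each point 1 library and each bar the median of its 16. Kmt2e lies highest, at a mean of 38.4 over all libraries, and Setd1a lowest, at 0.989.

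The coefficient of variation of the Kmt2d means was 36.2% over the 8 groups, of which 2 belong to the gate that chose the genes, and 37.3% over the 6 groups of the other gates. Its median between the libraries of a group was 14.1%. For Setd1a the coefficient was 35.3% over the 6 group means and 45.0% within groups, so its larger spread lay within groups. Kmt2e had 11.5% over the 6 group means. These are descriptions without a test.

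Kmt2d (chromosome 15, 98831669 to 98871204, - strand, GRCm38) encodes the main enhancer H3K4 monomethyltransferase. It was lower in cancer in each gate that did not choose the genes, and these gates share the same mice. In each of them the 4 cancer libraries lay below the 4 naive ones. The same order in TSLPR+ST2- Treg comes from the values that chose the genes. The values below are CPM with totals scaled by TMM, listed by mouse number; the windows upstream of these genes are printed above.

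In TSLPR+ST2+ Treg, Kmt2d had 52.2, 93.0, 72.2 and 99.3 CPM in cancer mice, against 159, 123, 157 and 182 in naive mice. The highest cancer library was thus below the lowest naive one, as for 5.48% of genes in this gate. The means were 79.2 ± 21.4 and 155 ± 24.2 CPM (SD, n = 4 each), and the log2 difference of -0.97 ± 0.17 (SE) passed the edgeR quasi-likelihood test with Benjamini-Hochberg adjustment over 14861 genes (adjusted p = 0.00236). The call was lost with the mitochondrial share as a covariate (edgeR adjusted p = 0.306) and in a fit of only the 8 libraries of this gate (adjusted p = 0.0944). Of those genes 2.5% were called lower and 4.16% were called in either direction in this gate.

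In TSLPR-ST2+ Treg, Kmt2d had 147, 138, 157 and 89.1 CPM in cancer mice, against 223, 214, 218 and 284 in naive mice. Mouse 8 was lowest and mouse 4 highest, and the groups did not overlap, as for 2.11% of genes in this direction. The means were 133 ± 30.3 and 235 ± 33.2 CPM, with a log2 difference of -0.82 ± 0.17 that passed (edgeR adjusted p = 0.0324). It was 1 of 30 genes called in this gate, 0.202% of those tested, or 67 genes with limma-voom and the mouse as a random block. The call was lost without mouse 1, 2, 3, 4, 6 or 8, with an adjusted p of up to 0.209 (without mouse 4), and in a fit of only the 8 libraries of this gate (adjusted p = 0.347).

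In TSLPR-ST2- Treg, Kmt2d had 189, 165, 145 and 148 CPM in cancer mice, against 204, 266, 229 and 280.0 in naive mice. The groups did not overlap here either, as for 2.99% of genes in this direction. The log2 difference of -0.60 ± 0.17 had an unadjusted p of 0.00169 and did not pass over all genes (edgeR adjusted p = 0.296), where 0.209% of genes passed. In TSLPR+ST2- Treg, whose values chose these genes, Kmt2d had 119.8, 98.7, 107 and 92.3 CPM in cancer mice, against 225, 193, 191 and 201 in naive mice. In that gate 4.02% of all genes were lower without overlap.

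**Figure D2:**
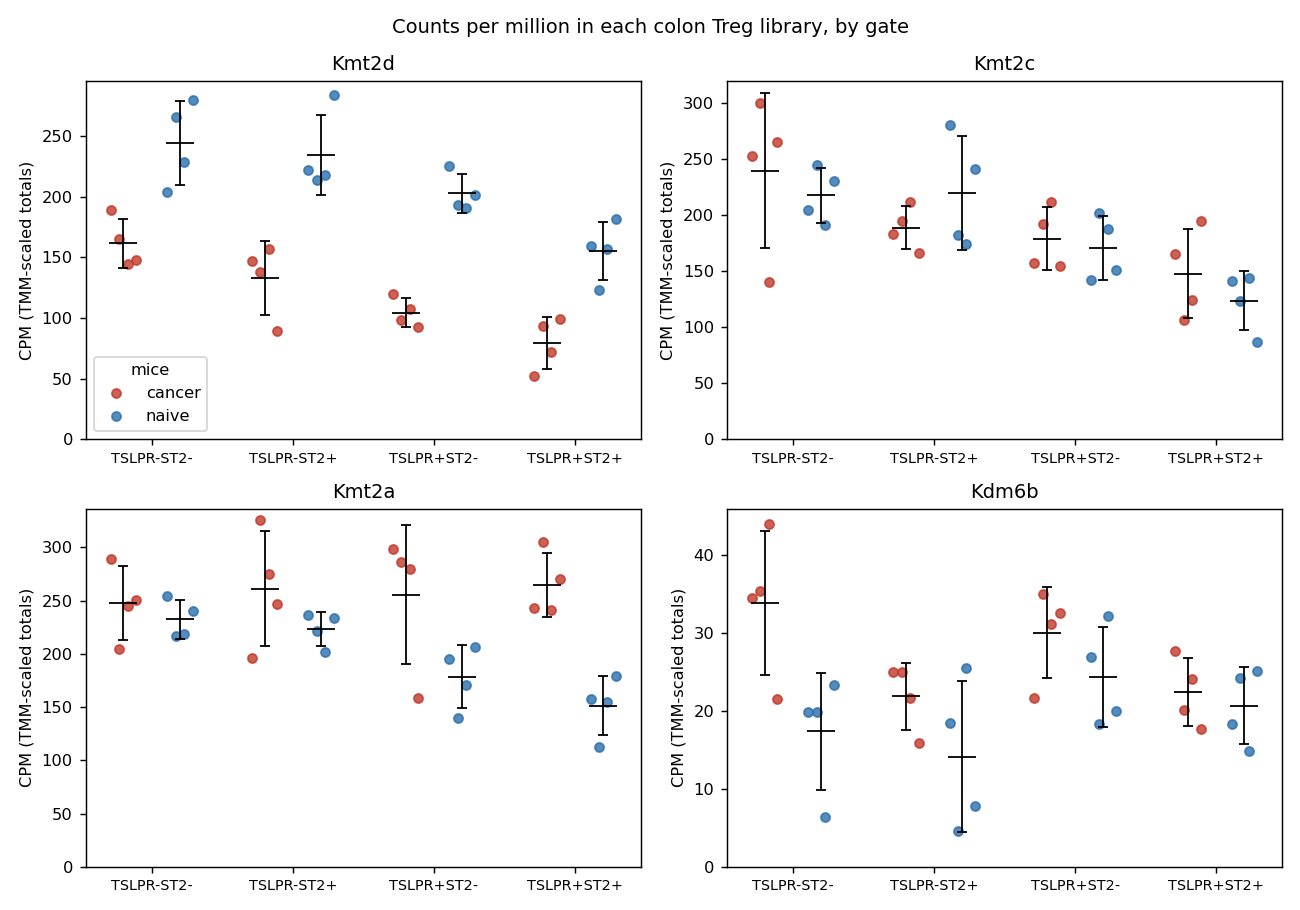
CPM of Kmt2d, Kmt2c, Kmt2a and Kdm6b in every library, by gate, with cancer mice in red and naive mice in blue; black marks are the mean and SD of 4 libraries. Kmt2d is lower in all 4 cancer libraries than in all 4 naive ones in each gate, down to 52.2 CPM in TSLPR+ST2+ cancer Treg. The TSLPR+ST2- values among them chose the genes.

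Since the 4 libraries of a mouse share the animal, counts were also summed per mouse over the 3 gates that did not choose the genes. Kmt2d then had 140.4, 134, 129 and 112 CPM in cancer mice, against 195, 191, 200.4 and 239 in naive mice. The groups stood apart, as for 4.18% of genes in this direction. The means were 129 ± 12.4 and 206 ± 22.2 CPM (SD, n = 4 each), with a log2 difference of -0.68 ± 0.11 and a 95% interval from -0.92 to -0.44. Over the 14422 genes tested per mouse this fell just short of the 0.05 limit (edgeR adjusted p = 0.0532), where 0.118% of genes passed. It passed with libraries thinned to equal totals (adjusted p = 0.0241) and with no low-count filter (adjusted p = 0.0496). Of 14 alternative settings it passed in 4, and the largest edgeR adjusted p was 0.434. It did not pass in any of the 8 fits without 1 mouse, whose adjusted p ran from 0.0943 to 0.149. The tests of whether the cancer difference itself differed between gates did not pass for Kmt2d. Its difference in TSLPR-ST2+ minus that in TSLPR-ST2- Treg was -0.22 ± 0.24 on the log2 scale (edgeR adjusted p = 1.00), and 0 genes (0% of those tested) passed that test, with 910 (6.12%) at an unadjusted p under 0.05 and 72 called by DESeq2. Its difference in TSLPR+ST2+ minus that in TSLPR-ST2+ Treg was -0.15 ± 0.24 (edgeR adjusted p = 0.884), where 0.0269% of genes passed.

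Kmt2c (chromosome 5, 25271798 to 25498783, - strand) encodes the paralog of KMT2D in the same kind of enhancer complex. It did not pass in any of the tested cancer comparisons. Per mouse it had 195 ± 22.4 CPM in cancer and 181 ± 18.3 in naive mice, a log2 difference of 0.11 with a 95% interval from -0.14 to 0.35 (edgeR adjusted p = 0.751). The ratio of Kmt2d to Kmt2c counts within a library does not depend on the scaling between libraries. Among TSLPR+ST2+ cells the 4 cancer libraries had ratios between 0.316 and 0.871, with a median of 0.546, and the 4 naive libraries between 0.999 and 2.11, with a median of 1.11. Among TSLPR-ST2+ cells the medians were 0.727 (0.536 to 0.806) with cancer and 1.18 (0.792 to 1.25) without, and the ranges overlapped. The TSLPR-ST2- medians were 0.652 (0.551 to 1.03) with cancer and 1.14 (0.999 to 1.21) without, again with overlap.

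Ncoa6, a coactivator subunit of the KMT2C and KMT2D complexes, varied widely between libraries of a group, from 19.6 to 76.7 CPM in naive TSLPR+ST2+ Treg alone. Its per-mouse levels were 45.0 ± 11.2 CPM in cancer and 51.6 ± 12.2 in naive mice, and the log2 difference of -0.20 had a 95% interval from -0.70 to 0.30 (edgeR adjusted p = 0.777).

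Kmt2a (chromosome 9, 44803355 to 44881296, - strand) moved the other way in TSLPR+ST2+ Treg. It had 243, 305, 241 and 271 CPM in cancer mice, against 158, 113, 155 and 179 in naive mice. All 4 cancer libraries lay above all 4 naive ones, as for 3.98% of genes. The means were 265 ± 29.9 and 151 ± 27.7 CPM, and Kmt2a rose by 0.81 ± 0.17 on the log2 scale (edgeR adjusted p = 0.00718), in a gate where 1.66% of genes were called higher. Kmt2a and Kmt2d were thus the 2 of 10 members called there, in opposite directions. Both calls held in each of the 8 fits without 1 mouse and in libraries thinned to the smallest total. The Kmt2a call was lost with the mitochondrial share as a covariate (edgeR adjusted p = 0.392) and in the gate alone (adjusted p = 0.0819).

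Kmt2a did not pass in the TSLPR- gates, with log2 differences of 0.22 ± 0.17 among ST2+ cells (edgeR adjusted p = 0.728) and 0.09 ± 0.17 among ST2- cells (adjusted p = 1.00). The difference between its TSLPR+ST2+ and TSLPR-ST2+ values, 0.58 ± 0.24, had an unadjusted p of 0.021 and did not pass (edgeR adjusted p = 0.325). Per mouse Kmt2a had 239.5, 269, 252 and 255 CPM in cancer mice, against 216, 177, 191 and 212 in naive mice. These do not overlap, as for 4.13% of genes in this direction, but the log2 difference of 0.35 ± 0.08 did not pass (edgeR adjusted p = 0.149). The count ratio of Kmt2d to Kmt2a in TSLPR+ST2+ Treg lay between 0.215 and 0.367 with cancer (median 0.302) and between 1.01 and 1.09 without (median 1.01). Both genes were called in this gate in opposite directions, so the ratio restates those calls. The 4 cancer groups averaged 247 to 265 CPM of Kmt2a and the 4 naive groups 151 to 232 CPM, although neighbouring groups in the order of means overlapped throughout.

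Other measures differed between the groups in the TSLPR+ST2+ gate. Cancer libraries had 1.43 to 3.23% mitochondrial counts and naive libraries 0.618 to 1.24%. With the log2 of this share as a covariate the log2 difference in this gate was 0.76 for Kmt2a and -0.88 for Kmt2d, and neither passed. The share also stood apart in TSLPR-ST2- Treg (1.25 to 1.60% with cancer, 0.800 to 1.21% without). The same held in TSLPR+ST2- Treg (1.46 to 1.96% and 1.04 to 1.17%). In TSLPR-ST2+ Treg the ranges overlapped (0.958 to 1.64% and 0.616 to 1.28%). The values that follow are again from TSLPR+ST2+ Treg. The 8 macrophage and dendritic cell markers summed to 382 to 782 CPM in cancer and 1332 to 2177 CPM in naive libraries; each of the 8 was found in some library of both groups. The 6 epithelial markers summed to 88.1 to 2202 CPM in cancer, the highest in mouse 7, and 117.1 to 177 CPM in naive libraries. The sum of the 5 stromal and endothelial markers also stood apart, at 43.7 to 93.6 CPM with cancer and 93.8 to 119 CPM without. This sum is mostly Pecam1, the 1 of the 5 counted in all 32 libraries, with a median of 154 CPM over them. Each of the others had a median of 0 and at most 8.82 CPM over the 32 libraries. The 6 B and plasma cell markers had medians of 385 CPM with cancer and 195 CPM without, with overlapping ranges. Foxp3 itself averaged 90.8 ± 25.8 CPM in cancer and 155 ± 35.4 CPM in naive libraries (edgeR adjusted p = 0.0431). The part of the marker levels in the result was not tested, apart from the fits without 1 mouse. In these bulk libraries, fewer cells that express a gene and less RNA per cell cannot be told apart.

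Kmt2b, Setd1a, Setd1b and Kmt2e passed in none of the tested cancer comparisons. Kmt2e had the tightest estimate, with 417 ± 26.9 CPM in cancer and 398 ± 33.9 in naive mice per mouse. Its log2 difference of 0.07 had a 95% interval from -0.11 to 0.25. Kmt2b had 38.9 ± 8.08 and 31.3 ± 7.64 CPM per mouse (log2 difference 0.31, interval -0.17 to 0.80). The SETD1 enzymes carry out much of the trimethylation of H3K4. Setd1a, with 6 to 86 counts in a library, was too low for a firm statement. Setd1b had 67 to 265 counts and a per-mouse log2 difference of -0.04, with a wide interval from -0.62 to 0.55. Kdm6b, described below, was similarly low, with 30 to 278 counts. In TSLPR+ST2+ Treg Setd1a had 9.66 ± 4.43 CPM in cancer and 4.31 ± 1.67 CPM in naive libraries, a log2 difference of 1.16 ± 0.64 (edgeR adjusted p = 0.327).

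The H3K27 demethylases went opposite ways in value, without a call. Kdm6b (chromosome 11, 69398508 to 69413675, - strand), an inducible demethylase, had 34.6, 35.4, 44.0 and 21.5 CPM in TSLPR-ST2- Treg of cancer mice, against 19.9, 19.8, 6.42 and 23.4 in naive mice. Only mouse 8 lay within the naive range. The log2 difference of 0.96 ± 0.40 had an unadjusted p of 0.0224, as 2.79% of genes had in this direction, and did not pass (edgeR adjusted p = 0.623). Per mouse it had 29.0, 27.3, 29.7 and 18.3 CPM in cancer, against 18.8, 16.1, 16.3 and 19.1 CPM in naive mice (log2 difference 0.57 ± 0.20, edgeR adjusted p = 0.285). Kdm6a (chromosome X, 18162575 to 18279936, + strand), the demethylase of the KMT2C and KMT2D complexes, averaged 77.1 ± 4.56 CPM in cancer and 96.2 ± 23.8 in naive mice, a log2 difference of -0.32 with an interval from -0.69 to 0.05 (edgeR adjusted p = 0.467). Its Y-linked paralog Uty had 2 counts in all.

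**Figure D3:**
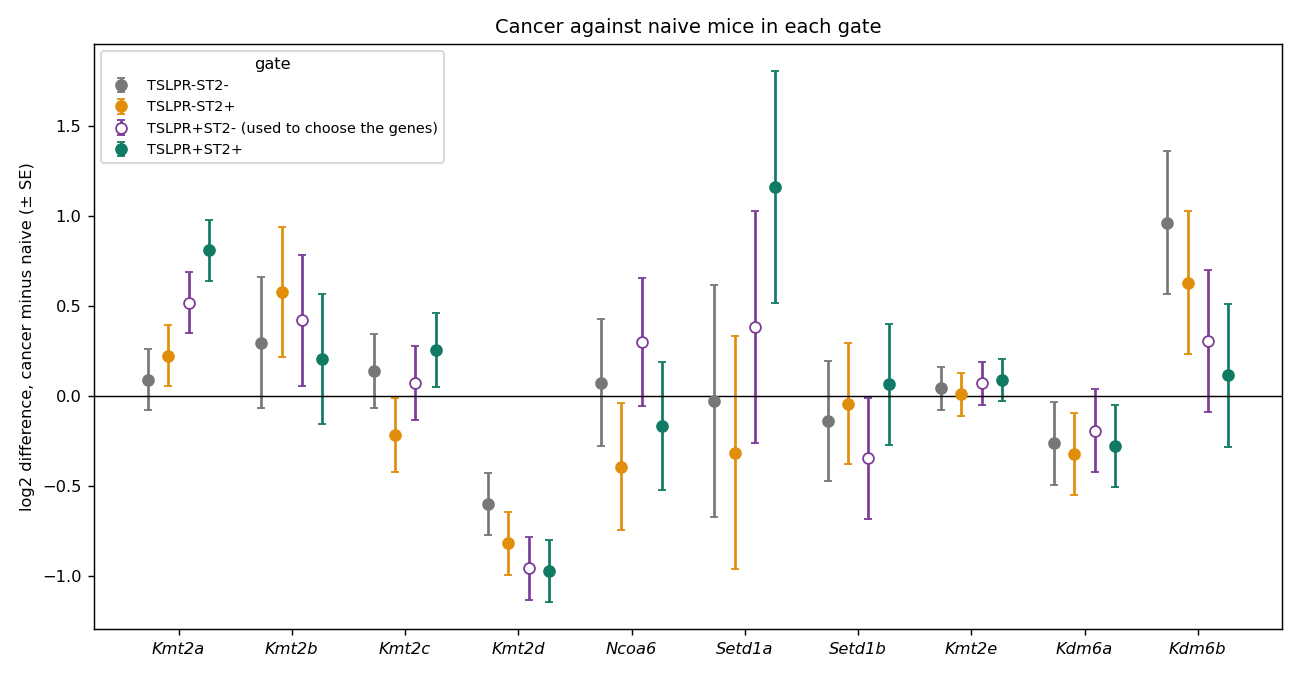
Log2 difference of cancer minus naive mice (± SE from the edgeR fit, 4 against 4 libraries) for the 10 genes in each gate; open symbols are the TSLPR+ST2- gate, whose values chose the genes. Kmt2d lies below 0 in every gate, from -0.60 to -0.97, and Kmt2a is highest in TSLPR+ST2+ Treg at 0.81.

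In TSLPR+ against TSLPR- Treg, Kmt2d, Kmt2c and Kmt2e fell, 3 of 10 genes, and 0 rose; among all genes 5.46% fell and 7.97% rose. The median log2 difference of the 10 genes was -0.17, against 0.01 over all genes tested. Each of the 3 was lower in 8 of 8 mice. Kmt2d had 135 ± 52.0 CPM in TSLPR+ and 194 ± 55.9 in TSLPR- libraries (SD, n = 16 each), a log2 difference of -0.56 ± 0.09 (edgeR adjusted p = 3.9e-05). Within cancer mice 5 to 8 its TSLPR+ means were 86.0, 95.8, 89.6 and 95.8 CPM, against TSLPR- means of 168, 152, 151 and 118.5 CPM. Within naive mice 1 to 4 the TSLPR+ means were 192, 158, 174 and 192 CPM, against 213, 240.1, 223 and 282 in TSLPR-. The TSLPR+ mean was the lower in each mouse. Of the 16 TSLPR+ libraries 8 are those of the gate that chose the genes. A fit of the other 24 libraries, added after seeing the data, compared TSLPR+ST2+ with TSLPR-ST2+ Treg and called 1.73% of genes lower and 2.05% higher. In it Kmt2d had 116.8 ± 45.8 CPM in TSLPR+ST2+ and 183 ± 61.5 in TSLPR-ST2+ libraries (SD, n = 8 each) and was lower in 7 of 8 mice, with a log2 difference of -0.67 ± 0.13 (edgeR adjusted p = 0.00513). This comparison rests on ST2+ cells, where mouse 5 went against its TSLPR labels, and it was not repeated without that mouse. Mouse 5 had 52.2 CPM of Kmt2d in its TSLPR+ST2+ and 147 in its TSLPR-ST2+ library. In naive mice alone the log2 difference of Kmt2d over all 4 gates was -0.43 (edgeR adjusted p = 0.0357). Without mouse 5 the log2 difference of Kmt2d was -0.50 (edgeR adjusted p = 0.000254).

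Kmt2c had 155 ± 35.6 CPM in TSLPR+ and 217 ± 44.8 in TSLPR- libraries, a log2 difference of -0.49 ± 0.10 (edgeR adjusted p = 0.00139). Kmt2e had 364 ± 35.7 and 437 ± 56.0 CPM, a log2 difference of -0.26 ± 0.06 (edgeR adjusted p = 0.00295). Without mouse 5 both still passed over all 4 gates (edgeR adjusted p = 0.00784 for Kmt2c and 0.00697 for Kmt2e). Kmt2e shares 972 exon bases with Srpk2 on the opposite strand, and the counting strand is not known. Srpk2 had 80.9 CPM in TSLPR+ and 98.9 in TSLPR- libraries, a log2 difference of -0.28 (edgeR adjusted p = 0.109). The part of Srpk2 reads in the Kmt2e counts was not tested. In the fit without the gate that chose the genes Kmt2c passed (log2 difference -0.59 ± 0.15, edgeR adjusted p = 0.0300) and Kmt2e did not (-0.23 ± 0.08, adjusted p = 0.128). That fit includes mouse 5 and was not repeated without it. In cancer mice alone Kmt2c and Kmt2e did not pass (edgeR adjusted p = 0.102 and 0.0865), while Kmt2d did in cancer mice alone and in naive mice alone. The TSLPR+ side of the cancer-only fit includes the cancer TSLPR+ST2- libraries, whose Kmt2d values chose the genes. The Kmt2d pass in cancer mice alone is therefore a description only. Kmt2a had 213 ± 62.4 CPM in TSLPR+ and 241 ± 34.1 in TSLPR- libraries and did not pass (edgeR adjusted p = 0.0865). In naive mice alone its log2 difference was -0.47 and passed (adjusted p = 0.0172), and the plot of gate means by mouse shows TSLPR+ below TSLPR- in 4 of 4 naive mice for Kmt2a. Genes with long exons tended lower in TSLPR+ Treg: the median log2 difference was -0.07 over 2121 genes with at least 8 kb of exon and 0.10 over 3393 genes under 2 kb. The summed macrophage and dendritic cell markers had a median of 521 CPM in TSLPR+ and 236 in TSLPR- libraries, and the B and plasma cell markers 162 and 53.6 CPM. The epithelial markers had medians of 90.0 and 30.4 CPM, and the stromal and endothelial markers, mostly Pecam1, 107 and 183 CPM. Their part in the result was not tested.

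**Figure D4:**
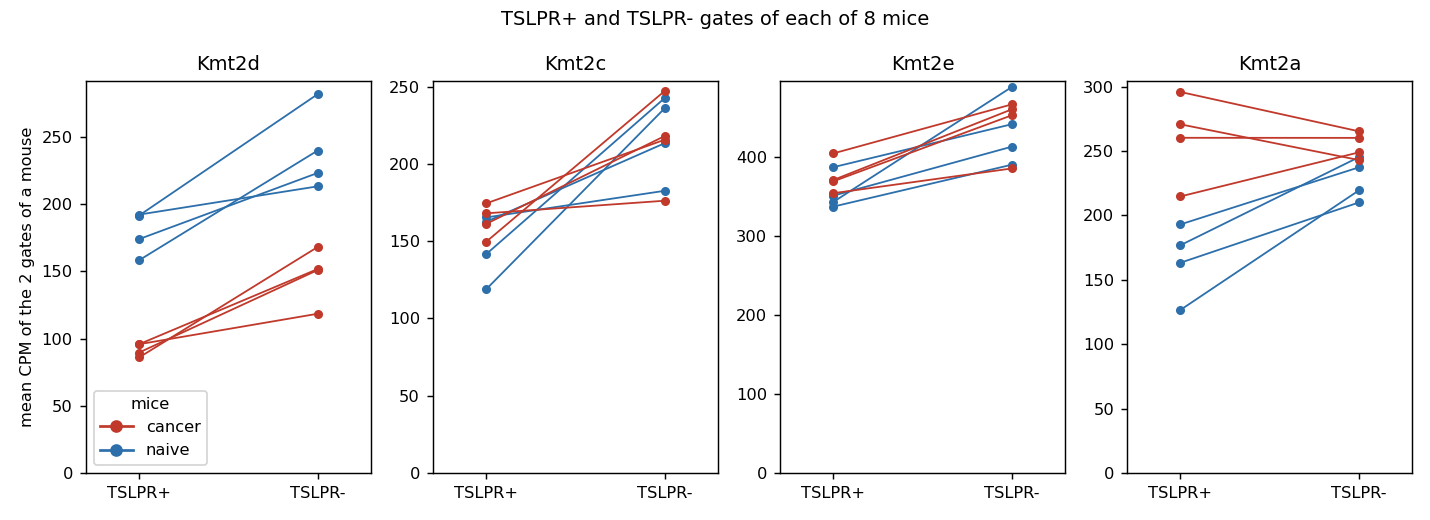
Mean CPM of the TSLPR+ gates (left) and TSLPR- gates (right) of each mouse, joined by a line, for Kmt2d, Kmt2c, Kmt2e and Kmt2a; red lines are 4 cancer mice and blue lines 4 naive mice. For Kmt2d, Kmt2c and Kmt2e the TSLPR+ mean is the lower in 8 of 8 mice, and for Kmt2d the red lines run below the blue ones. The TSLPR+ means include the TSLPR+ST2- gate, whose values chose the genes.

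In ST2+ against ST2- Treg Kmt2d was the 1 of 10 genes called, where 2.33% of genes fell and 3.7% rose. Kmt2d averaged 151 ± 62.8 CPM in ST2+ against 178 ± 57.2 CPM in ST2- Treg and was lower in 8 of 8 mice, with a log2 difference of -0.28 ± 0.09 (edgeR adjusted p = 0.0488). Of the 16 ST2- libraries 8 are those of the gate that chose the genes. In the fit of the other 24 libraries, which compared TSLPR-ST2+ with TSLPR-ST2- Treg, Kmt2d did not pass: it had 183 ± 61.5 and 202 ± 51.7 CPM (SD, n = 8 each), was lower in 5 of 8 mice and had a log2 difference of -0.17 ± 0.13 (edgeR adjusted p = 0.727). With edgeR 0 of the 10 genes passed there, 0 had an unadjusted p under 0.05, and 0.218% of all genes were called lower. With all 4 gates the call was at the limit: with the mouse as a fixed block the adjusted p was 0.0693, and without 1 mouse it ran from 0.0346 to 0.172, above 0.05 in 7 of 8 fits. Setd1b (20.5 ± 6.92 and 28.05 ± 5.91 CPM, edgeR adjusted p = 0.111) and Kmt2c (170.0 ± 50.0 and 202 ± 47.4 CPM, adjusted p = 0.120) were each lower in 7 of 8 mice and did not pass. The macrophage and dendritic cell markers summed to 316 to 2536 CPM in ST2+ and 2.51 to 1199 CPM in ST2- libraries. The medians of the epithelial markers were 81.2 and 34.9 CPM, of the B and plasma cell markers 113 and 63.7 CPM and of the stromal and endothelial markers 115 and 169 CPM, and their part in the result was not tested.

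Taken over the 8 groups, the Kmt2d means ran in this order: 245 CPM in naive TSLPR-ST2-, 235 in naive TSLPR-ST2+, 203 in naive TSLPR+ST2-, 162 in cancer TSLPR-ST2-, 155 in naive TSLPR+ST2+, 133 in cancer TSLPR-ST2+, 104 in cancer TSLPR+ST2- and 79.2 in cancer TSLPR+ST2+. The ranges of neighbours in this order overlapped, except for naive TSLPR+ST2- above cancer TSLPR-ST2- Treg. How many of all genes show a gap between these groups was not counted. The gates kept the same order within cancer and within naive mice. The TSLPR+ST2- means in this order come from the values that chose the genes, so it is a description only.

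Of 50 related chromatin genes, 47 passed the filter. These genes were grouped in lists chosen with results known. In TSLPR+ST2+ Treg 2 of the 47 rose and 1 fell, where 1.66% and 2.5% of all genes did. At an unadjusted p under 0.05 there were 15 of the 47, where 20.2% of all genes had one. Without 1 mouse the count of 3 ran from 1 (without mouse 3, 4 or 6) to 5 (without mouse 1), and it was 2 without mouse 2 or 5. Bod1l, a partner of the SETD1 complexes, had 203 ± 37.6 CPM in cancer and 124 ± 15.9 in naive libraries (log2 difference 0.71 ± 0.16, edgeR adjusted p = 0.0112). Nsd3, an H3K36 methyltransferase, had 127 ± 22.8 and 81.9 ± 10.96 CPM (0.64 ± 0.17, adjusted p = 0.0274). Setdb1, an H3K9 methyltransferase, had 25.5 ± 8.51 and 76.8 ± 30.1 CPM (-1.60 ± 0.29, adjusted p = 0.00297). The median log2 difference of the 47 was -0.07, against 0.05 over all genes. With edgeR 0 of the 47 passed in TSLPR-ST2- Treg, in TSLPR-ST2+ Treg or per mouse, and DESeq2 called 0, 2 and 4 in that order. In TSLPR-ST2- Treg 3 of the 47 had an unadjusted p under 0.05, where 7.41% of all genes did. In TSLPR-ST2+ Treg 5 of the 47 did, where 10.6% of all genes did. Per mouse 11 of the 47 did, where 12.5% of all genes did.

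The shared core subunits Wdr5, Rbbp5, Ash2l and Dpy30 passed in 0 of the cancer and gate comparisons. Their per-mouse log2 differences ran from -0.01 for Wdr5 to 0.27 for Dpy30, which had 84.2 CPM in cancer and 69.7 in naive mice (edgeR adjusted p = 0.392). Of 11 PRC2 genes 0 passed with cancer in edgeR, with 4 at an unadjusted p under 0.05 in TSLPR+ST2+ Treg and 3 per mouse, where 20.2% and 12.5% of all genes had one and 4.16% and 0.118% were called. Their per-mouse values ran from -0.81 ± 0.24 on the log2 scale for the accessory subunit Jarid2 (37.5 CPM in cancer and 65.6 in naive mice, edgeR adjusted p = 0.212) to 0.97 ± 0.77 for another accessory subunit, Phf19, with few counts (2.33 and 1.19 CPM, adjusted p = 0.655). Ncoa3, an enhancer coactivator, had 201 and 287 CPM (log2 difference -0.52 ± 0.13, adjusted p = 0.160).

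In TSLPR+ against TSLPR- Treg 5 of the 47 fell and 2 rose, where 5.46% of all genes fell and 7.97% rose, and their median was -0.13, against 0.01 over all genes. In the fit without the gate that chose the 10 members, edgeR called 0 of the 47, with 7 at an unadjusted p under 0.05, as 17.4% of all genes had. The values below are from all 4 gates. Ncoa3 fell by 0.39 on the log2 scale (202 and 268 CPM, edgeR adjusted p = 0.00446). Cxxc1, a CpG-binding subunit of the SETD1 complexes, fell by 0.33 (99.6 and 124 CPM, adjusted p = 0.0396). Phf1, a PRC2 accessory subunit, fell (52.8 and 81.3 CPM, edgeR adjusted p = 0.0041), while Aebp2, another, rose (99.4 and 77.9 CPM, adjusted p = 0.0273). Among methyltransferases of other residues Nsd2 rose (38.5 and 21.1 CPM), and Nsd3 (121 and 155 CPM) and Setdb1 (47.3 and 68.6 CPM) fell. In ST2+ against ST2- Treg 4 of the 47 fell and 0 rose, where 2.33% of all genes fell and 3.7% rose. The count was 2 without mouse 1, 3 or 4, and the fit without the gate that chose the 10 members called 1, Ncoa3, which is none of these 4. The 4 were Bod1l (169 and 204 CPM), the H3K4 demethylase Kdm5b (105 and 133 CPM), Nsd3 (119 and 158 CPM) and the H3K9 methyltransferase Suv39h1 (17.3 and 28.6 CPM).

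Likeness to Kmt2d was described by Pearson r of log2 CPM over 8316 protein-coding genes with a mean of at least 10 CPM, leaving out immune receptor, ribosomal, mitochondrial and unnamed genes, with no test. After group means were taken out, the genes nearest to Kmt2d over 32 libraries were Aen (r = 0.73), Aifm1 (0.70), Dennd6a (0.67), Agtpbp1 (0.67) and Capn10 (0.65). Over the 8 group means they were Uggt1 (0.98), Celsr1 (0.98), Sf3b3 (0.97), Wdr24 (0.97) and Jun (0.97). These are the highest of 8316 values over only 8 points, which include the groups of the gate that chose the genes. Kmt2c was not among the nearest genes: its r with Kmt2d was 0.11 within groups and 0.50 over group means. For Kdm6b the nearest genes within groups reached an r of 0.58 (BC005537), and over the 8 group means 0.97 (Arhgef7). These points share libraries, depth and the share of counts in long genes, with which Kmt2d itself had an r of 0.50 within groups.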

How the data were processed

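The data are 32 colon Treg libraries and 1 library of CD44low T cells without Foxp3, made with a full-length kit from 200 cells and sequenced as 58-base single reads. The authors deposited raw counts per gene, whole numbers without normalization; per the submitters' processing notes the build was GRCm38 and the tools included FastQC 0.11.3, SAMtools 1.2, Picard 1.134 and HTSeq 0.4.1. For the aligner, the annotation release and the counting strand the sources used here give nothing, and reads from a gene and its antisense partner cannot be told apart without strand. Positions and exons came from GENCODE M21, promoters from RefSeq.

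Counts were tested with edgeR 4.0.16 in R 4.3.3: TMM scaling, filterByExpr (minimum count 10, minimum total 15), a group-means model of 32 libraries, the quasi-likelihood F-test and Benjamini-Hochberg adjustment with a limit of 0.05. DESeq2 1.42.0 and limma 3.58.1 served as alternatives, with RLE scaling, no filter, thinning to 4038718 counts, each mouse left out, 1 gate alone, 1 kind of mouse alone, the TSLPR+ST2- gate left out (added after seeing the data), the mitochondrial share as a covariate and the mouse as a block. CPM are per 1000000 TMM-scaled counts, and marker sums use plain totals. Figures were drawn with matplotlib.

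The members and lists were chosen with earlier results of these data known. Named are the 10 members, the sort genes Foxp3, Crlf2 and Il1rl1, up to 4 passing genes of each list in a comparison, and the 5 genes most like Kmt2d or Kdm6b; the core subunits, Jarid2, Phf19 and the per-mouse values of Ncoa3 were named after their values were seen. Replicates are different mice, and gates of 1 mouse share the animal, so mouse numbers pair the gates. Deviations from group means had a mean correlation of 0.00993 over 48 pairs of the same mouse, 3 of them over 0.1, and -0.00331 over 144 other pairs. On simulated counts the test within 1 gate recovered 26 of 100 genes changed 2-fold and 6 of 100 changed 1.5-fold over 14230 genes, and the per-mouse test 27 and 5 of 100 over 13805. The changed genes were drawn at random from those with a mean of at least 10 counts and were not matched to the members. Library totals ran from 4038718 to 8839946 counts, and low genes such as Setd1a have the widest intervals.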

Additional observations from a re-analysis of the deposited data

Results flagged for a closer look

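In groups of 4 the value of 1 mouse can stand apart from the other 3, and 6 of 100 groups checked for the 10 genes did so; chance flags about 1 in 20. Per mouse over 3 gates, cancer mouse 7 was low for Kmt2c (162 CPM, the others 204 to 208), for Kmt2e (377, the others 426 to 436) and for Kdm6a (70.4, the others 79.1 to 80.1). Its TSLPR+ST2+ library had the highest epithelial marker sum, 2202 CPM, and held 124 CPM of Kmt2c and 377 of Kmt2e. Neither was the lowest of the cancer libraries of that gate. In TSLPR-ST2- Treg mouse 7 was the lowest cancer mouse for both, at 141 and 366 CPM, with an epithelial sum of 15.2 CPM. The part of the markers was not tested. Without that mouse Kmt2c, Kmt2e and Kdm6a did not pass per mouse either. Naive mouse 1 was high for Kmt2c in the same sums, at 209 CPM against 169 to 175. Kmt2a in TSLPR+ST2- Treg of cancer mouse 8 was 159 CPM, with 279 to 298 in the other cancer mice of that gate. Kmt2d in TSLPR-ST2+ Treg of naive mouse 4 was 284 CPM, against 214 to 223. Leaving out mouse 4, the Kmt2d difference of that gate was -0.71 on the log2 scale and no longer passed (edgeR adjusted p = 0.209).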

How the results depend on the processing

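With 1 mouse left out, 571 of 640 values kept direction and side of the limit, 13 lost the call and 56 changed sign without a call; of 610 values under the other settings 571 were kept, 15 lost and 6 gained a call, and 18 changed sign without a call. A called value never changed sign.

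Genes called with cancer numbered 31 in TSLPR-ST2- (DESeq2 128; 11 to 24 without 1 mouse), 30 in TSLPR-ST2+ (mitochondrial share as a covariate 46, only the 8 libraries of the gate 2, DESeq2 204; 4 to 37) and 618 in TSLPR+ST2+ Treg (no filter 358, mitochondrial share 5, gate alone 17, DESeq2 1196, as 594 higher and 602 lower against 247 and 371; 171 to 749). Per mouse they were 17 (thinned 57, mitochondrial share 0, all 4 gates 186, DESeq2 562; 5 to 10). The gate comparisons called 897 genes for ST2 (naive mice only 143, cancer mice only 349, without the TSLPR+ST2- gate 165; 459 to 783) and 1996 for TSLPR (666, 1057 and 538; 1303 to 1939). The differences of the cancer effect called 0 for TSLPR-ST2+ minus TSLPR-ST2- (DESeq2 72; 0 without 1 mouse) and 4 for TSLPR+ST2+ minus TSLPR-ST2+ (RLE 0, no filter 0, mitochondrial share 1, DESeq2 123; 0 to 13).

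Of the 10 members, the 1 call for ST2 became 0 with RLE, no filter, thinning, 1 kind of mouse or without the TSLPR+ST2- gate (0 to 1 without 1 mouse). Per mouse the 0 became 1 with no filter, thinning or all 4 gates (which adds the gate that chose the genes) and 2 with DESeq2 (Kmt2d and Kmt2a, adjusted p = 0.0113 for Kmt2a; 0 without 1 mouse). The 2 in TSLPR+ST2+ became 0 with the mitochondrial share or the gate alone (2 without 1 mouse), the 1 in TSLPR-ST2+ became 0 with the gate alone (0 to 1), and the 3 for TSLPR became 1 in cancer mice only. That 1 is Kmt2d, whose cancer TSLPR+ST2- values chose the genes and enter this fit. The cause was not tested; the fits of 1 gate, 1 kind of mouse or 3 gates use fewer libraries. The fit without the TSLPR+ST2- gate was chosen after seeing the data.

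With the mouse as a replicate block, limma-voom called 67 genes in TSLPR-ST2+ and 0 for the cancer effect in TSLPR+ST2+ minus that in TSLPR-ST2+, and edgeR with fixed mouse terms called 2 there and 0 members for ST2 (Kmt2d adjusted p = 0.0693, against 0.0456 with the random block). The block changed no other member's call. Simulated 1.5-fold changes of genes not matched to the members were mostly missed at this size, so the rate is not one for the members. Setd1a, with 6 to 86 counts, is limited by depth.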

Other observations

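The single library of CD44low T cells from a naive mouse, sorted without Foxp3, stands outside the 8 groups and has no replicate, so its values carry no test. It had 2 Foxp3 counts. Kmt2d was at 235 CPM in it, inside the range of the 16 naive Treg libraries on the same scale (124 to 281). Kmt2c, at 294 CPM, was above all 16 (87.6 to 280.01), and Setd1a, at 13.9 CPM, was above their highest value of 11.3. How many of all genes lay outside the range of the 16 in this library was not counted, so these 2 are a description only. Kmt2a (240.0 CPM), Kmt2b (39.4), Setd1b (19.9), Kmt2e (486), Ncoa6 (42.7), Kdm6a (73.3) and Kdm6b (25.1) lay within the naive Treg ranges.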
